A study of Homo sapiens with 4 samples.

Results

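Genes of methionine, one-carbon and serine metabolism were followed in H9 cells, a human embryonic stem cell line, with and without SIRT1, a NAD-dependent protein deacetylase. The 10 genes, MAT2A, MAT2B, AHCY, MTR, MTHFD1, MTHFD2, SHMT2, PHGDH, PSAT1 and GLDC, were taken by symbol from the 36601 features of the count matrices, and each symbol matched 1 feature. Transcript 3′ ends of single cells were sequenced from droplets, and each captured molecule was counted once through its unique molecular identifier (UMI). Wild-type H9 cells and H9 cells with a SIRT1 deletion (knockout) were each profiled at day 0 and at day 6 of a protocol that directs them towards dopaminergic neurons, with 1 library per group. The labels do not say how the deletion was made or whether the knockout line is 1 clone. Cells with at least 4000 UMIs, at least 1000 detected genes and at most 20% of UMIs from mitochondrially encoded genes were kept. This left 5533 wild-type and 7275 knockout cells at day 0, and 5372 wild-type and 4419 knockout cells at day 6.

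The methionine cycle turns methionine into S-adenosylmethionine, the methyl donor of the cell, and regenerates methionine from homocysteine with a methyl group carried by folate. One-carbon units enter the folate pool mainly from serine, in the mitochondria and in the cytosol, and serve purine and thymidylate synthesis as well as methylation. Serine is made from a glycolytic intermediate, and glycine can be broken down by the mitochondrial glycine cleavage system to give a further one-carbon unit. Human pluripotent stem cells are known to depend on methionine, and GLDC and PSAT1 are known for their expression in them.

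Promoter sequence is shown for PSAT1, GLDC and MTHFD1, which were lower at day 6 than at day 0 in both genotypes, and for MTHFD2, which was 1.60-fold lower at day 6 than at day 0 in the knockout, or 1.46-fold with trimmed-mean (TMM) scaling of the libraries. RefSeq promoters (GRCh38.p14) were found for 9 of the 10 genes, the exception being SHMT2, and each window runs from 250 bases before to 50 after the start of transcription. The sequences below run 5′ to 3′ on the gene's strand and stop 20 bases after the start. Capitals mark a match to 1 of 3 motifs searched on both strands.
PSAT1, chr9:78296875-78297144, plus strand: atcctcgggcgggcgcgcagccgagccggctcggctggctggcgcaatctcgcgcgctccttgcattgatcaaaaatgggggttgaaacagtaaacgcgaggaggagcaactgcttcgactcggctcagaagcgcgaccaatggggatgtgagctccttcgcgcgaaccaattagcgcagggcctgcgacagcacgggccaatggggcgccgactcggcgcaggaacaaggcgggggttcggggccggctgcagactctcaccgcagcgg
GLDC, chr9:6645710-6645979, minus strand: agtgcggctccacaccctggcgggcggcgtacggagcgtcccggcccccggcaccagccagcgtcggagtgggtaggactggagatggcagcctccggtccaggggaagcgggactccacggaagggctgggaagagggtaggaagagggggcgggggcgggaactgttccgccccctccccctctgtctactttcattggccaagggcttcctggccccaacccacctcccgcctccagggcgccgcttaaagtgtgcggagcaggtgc
MTHFD1, chr14:64388103-64388372, plus strand: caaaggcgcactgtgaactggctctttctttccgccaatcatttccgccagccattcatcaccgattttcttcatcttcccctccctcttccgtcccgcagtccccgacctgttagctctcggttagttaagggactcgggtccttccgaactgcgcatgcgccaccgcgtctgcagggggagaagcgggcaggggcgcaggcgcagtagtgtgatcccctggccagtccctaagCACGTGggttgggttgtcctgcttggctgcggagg
MTHFD2, chr2:74198365-74198634, plus strand: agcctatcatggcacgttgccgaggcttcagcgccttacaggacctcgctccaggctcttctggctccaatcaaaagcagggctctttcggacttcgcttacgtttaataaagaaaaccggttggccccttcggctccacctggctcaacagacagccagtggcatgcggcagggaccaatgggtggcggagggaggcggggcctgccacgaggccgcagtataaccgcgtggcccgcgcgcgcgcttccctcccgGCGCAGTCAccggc
The 3 motifs were the amino acid response element TGATGNAA, which ATF4 binds, the E-box CACGTG, which MYC and MAX bind, and the antioxidant response element TGACNNNGC, which NRF2 binds. The capitals in MTHFD1 are an E-box that begins 15 bases before the start, and those in MTHFD2 are an antioxidant response element on the opposite strand, beginning at base 7 of the transcript. No 2 matches overlapped. TGATGNAA was in none of the windows of the 9 genes, and in 3.62% of all 35116 promoters of the same length. CACGTG was in 7.26% of all promoters and in those of 1 of the 9 genes, and TGACNNNGC in 13.3% and in 1 of 9.

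The kept cells held 51424092 to 73451883 UMIs per library, with a median of 8367 to 13169 UMIs per cell, and library pairs shared 5 to 18 cell barcodes. Levels are given as counts per 1000000 UMIs (CPM). The SIRT1 level of the knockout was 7.11 CPM against 32.3 CPM for wild type at day 0, and 9.95 against 30.2 CPM at day 6. Summed over 8 pluripotency markers, day 0 levels were 3278 CPM for wild type and 2906 CPM for the knockout, and day 6 levels 800.1 and 922 CPM. The 6 markers of floor plate, the ventral midline cells from which midbrain dopaminergic neurons arise, summed to 3.98 CPM in wild type at day 0 and to 93.3 and 105.8 CPM at day 6, with FOXA1 and FERD3L at 0 in the knockout at day 0. With 1 library per group no test can be made, so ratios carry exact 95% intervals that cover counting error only, and compare libraries rather than conditions. A gene was called higher or lower where its ratio reached 1.5-fold with an interval excluding 1 and it had at least 10 CPM in 1 of the 2 libraries. Fewer cells that express a gene and less RNA per cell cannot be told apart in such summed levels.

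Together the 10 genes took 0.163% of all UMIs in wild type and 0.151% in the knockout at day 0, and 0.114% and 0.0980% at day 6. Their combined share was thus lower at day 6 in both genotypes, but the genes did not share 1 pattern. The ratio of a gene's highest to its lowest library ran from 1.17 for MAT2A to 7.97 for GLDC.

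**Figure D1:**
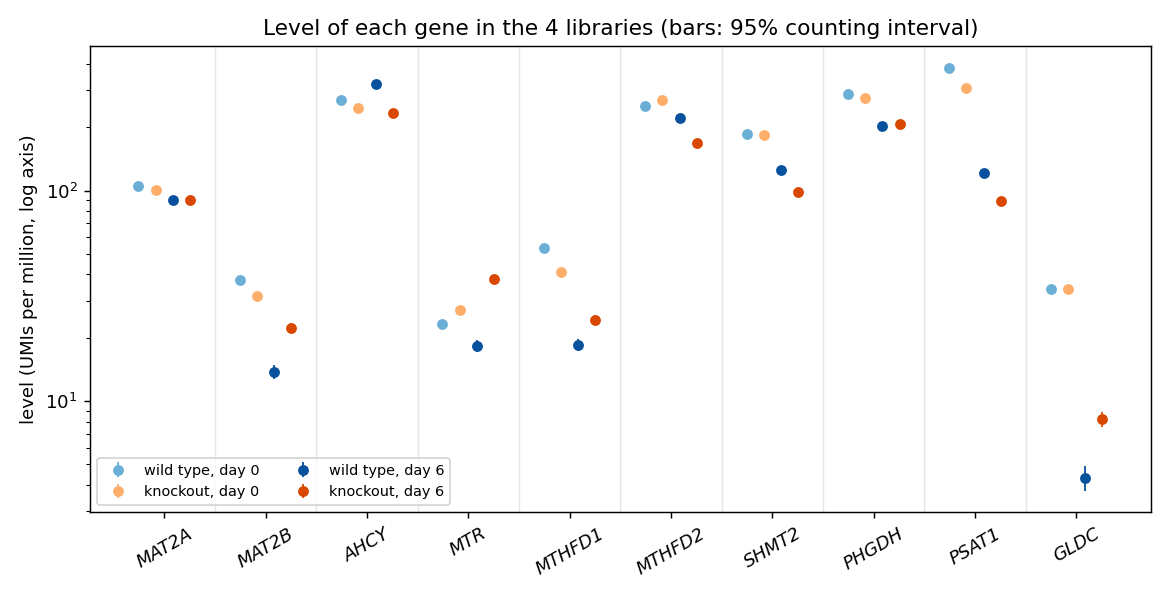
Level of each of the 10 genes (CPM, log axis) in the wild-type and knockout libraries at day 0 and day 6; points are summed cells of 1 library and bars are exact 95% Poisson intervals, mostly smaller than the points. MAT2A spans 90.1 to 105 CPM, whereas PSAT1 spans 88.8 to 381 CPM and GLDC 4.30 to 34.2 CPM, both with the 2 day 6 libraries below the 2 of day 0.

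Among the methionine cycle genes, MAT2A (GRCh38, chr2:85539165-85545280) encodes the catalytic subunit that makes S-adenosylmethionine outside the liver. Wild type held 105 CPM (95% interval 103 to 108) and the knockout 100.4 CPM at day 0, followed by 90.6 and 90.1 CPM at day 6. The 2 day 6 intervals overlapped, and this was the gene with the narrowest range over the libraries. MAT2B (chr5:163503114-163519336) encodes the regulatory subunit that binds the MAT2A protein. At day 0 its level was 37.7 CPM for wild type and 31.6 CPM for the knockout, and at day 6 it was 13.7 CPM (12.8 to 14.8) for wild type and 22.2 CPM (21.1 to 23.4) for the knockout. Wild-type day 6 was the lowest of the 4, and no intervals overlapped. The number of MAT2A UMIs per MAT2B UMI was 2.80 for wild type and 3.18 for the knockout at day 0, then 6.59 (6.09 to 7.14) and 4.05 (3.83 to 4.30) at day 6.

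AHCY encodes the hydrolase that removes S-adenosylhomocysteine, the product and inhibitor of methylation reactions. Day 0 levels were 269.7 CPM for wild type and 247 CPM for the knockout, and day 6 levels 321 CPM (316 to 326) and 233 CPM (229 to 237). The wild-type day 6 library was the highest and the knockout day 6 library the lowest. MTR (chr1:236795281-236903981) encodes methionine synthase, which joins the folate and methionine cycles. Its wild-type level was 23.2 CPM at day 0 and 18.2 CPM (17.1 to 19.4) at day 6, and its knockout level 27.1 CPM at day 0 and 37.9 CPM (36.4 to 39.4) at day 6. Here the order was the reverse of AHCY at day 6, with wild type lowest and the knockout highest of the 4 libraries.

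Among the folate cycle genes, MTHFD1 (chr14:64388031-64463457) encodes the cytosolic enzyme that carries 3 steps of one-carbon interconversion. The wild-type level was 53.3 CPM (51.7 to 55.0) at day 0 and 18.6 CPM (17.4 to 19.8) at day 6, and the knockout level 41.0 CPM at day 0 and 24.3 CPM (23.1 to 25.5) at day 6. The genotypes thus stood in opposite order on the 2 days. MTHFD2, its mitochondrial counterpart (chr2:74198562-74217565), stood at 253 CPM for wild type and 269.7 CPM for the knockout at day 0, then at 220.2 and 169 CPM (166 to 172) at day 6. SHMT2 (chr12:57229327-57234935) encodes the mitochondrial enzyme that splits serine into glycine and a one-carbon unit. Its day 0 levels were 185 CPM for wild type and 183 CPM for the knockout, with overlapping intervals, and its day 6 levels 126 and 98.6 CPM. Both mitochondrial enzymes were lowest in the knockout at day 6, whereas the cytosolic enzyme was lowest in wild type at day 6.

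Transcripts for a mitochondrial enzyme were set against those for its cytosolic counterpart in the pairs MTHFD2 and MTHFD1, and SHMT2 and SHMT1. Both ratios were highest in wild type at day 6. MTHFD2 UMIs per MTHFD1 UMI numbered 4.75 (4.58 to 4.91) for wild type and 6.58 for the knockout at day 0, then 11.9 (11.1 to 12.7) and 6.95 (6.59 to 7.33) at day 6. The quotient of SHMT2 to SHMT1, the cytosolic serine hydroxymethyltransferase, was 5.48 and 5.59 at day 0, and 8.56 (7.94 to 9.25) and 4.34 (4.10 to 4.59) at day 6. In both pairs wild-type day 6 had the highest quotient, with an interval clear of the other 3.

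Among the serine and glycine genes, PHGDH encodes the first and PSAT1 the second enzyme of serine synthesis. PHGDH (chr1:119648411-119744226) stood at 288 CPM for wild type and 274 CPM for the knockout at day 0, then at 202 and 208 CPM at day 6, where the intervals overlapped. PSAT1 (chr9:78297143-78330093) went from 381 CPM (377 to 386) to 122 CPM in wild type and from 307 CPM to 88.8 CPM (86.5 to 91.1) in the knockout. The 2 steps of the pathway thus differed in how far their transcripts ranged, 1.42-fold for PHGDH and 4.30-fold for PSAT1. GLDC (chr9:6532464-6645783) encodes the glycine decarboxylase of the glycine cleavage system. Both day 0 libraries were close, at 34.2 CPM (32.9 to 35.6) for wild type and 34.0 CPM for the knockout, and at day 6 the levels were 4.30 CPM (3.75 to 4.90) and 8.19 CPM (7.51 to 8.91). These day 6 levels rest on 221 UMIs in wild type and 535 in the knockout.

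Comparing day 6 with day 0 asks how these genes stand before and after the start of differentiation. In wild type 4 of the 10 genes were lower at day 6 and none was higher, where 37.2% of the 9324 measured genes were lower and 11.7% higher. The 4 were GLDC, 7.97-fold lower (6.94 to 9.18), PSAT1, 3.14-fold (3.05 to 3.23), MTHFD1, 2.87-fold (2.68 to 3.09), and MAT2B, 2.75-fold (2.53 to 2.99). The members' share is close to that background. SHMT2 was 1.47-fold lower, just short of the 1.5-fold limit, and AHCY was the only gene above 1 in wild type, at 1.19-fold. The median log2 ratio was -0.53 over the 10 genes and -0.35 over all measured genes. With TMM scaling, which put the all-gene median at 0.10, these 4 genes were still lower and AHCY was called higher at 1.58-fold. Under that scaling 18.6% of genes were lower and 25.8% higher, and the small differences of MAT2A, MTR and MTHFD2 changed sign.

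In the knockout 5 of the 10 genes were lower at day 6 and none was higher, where 20.9% of 9368 measured genes were lower and 13.9% higher. These were GLDC, 4.15-fold lower (3.78 to 4.57), PSAT1, 3.46-fold (3.36 to 3.56), SHMT2, 1.86-fold (1.80 to 1.91), MTHFD1, 1.69-fold (1.59 to 1.80), and MTHFD2, 1.60-fold (1.56 to 1.64). MAT2B, called in wild type, was 1.42-fold lower and was not called. MTR was 1.40-fold higher. The median log2 ratio was -0.59 over the 10 genes and -0.09 over all measured genes. With TMM scaling 4 were lower, MTHFD2 being lost at 1.46-fold, and MTR was called higher at 1.53-fold, against 15.5% and 19.0% of all genes. AHCY, close to 1 in either case, changed sign. GLDC, PSAT1 and MTHFD1 were called lower in both genotypes, and with either scaling.

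**Figure D2:**
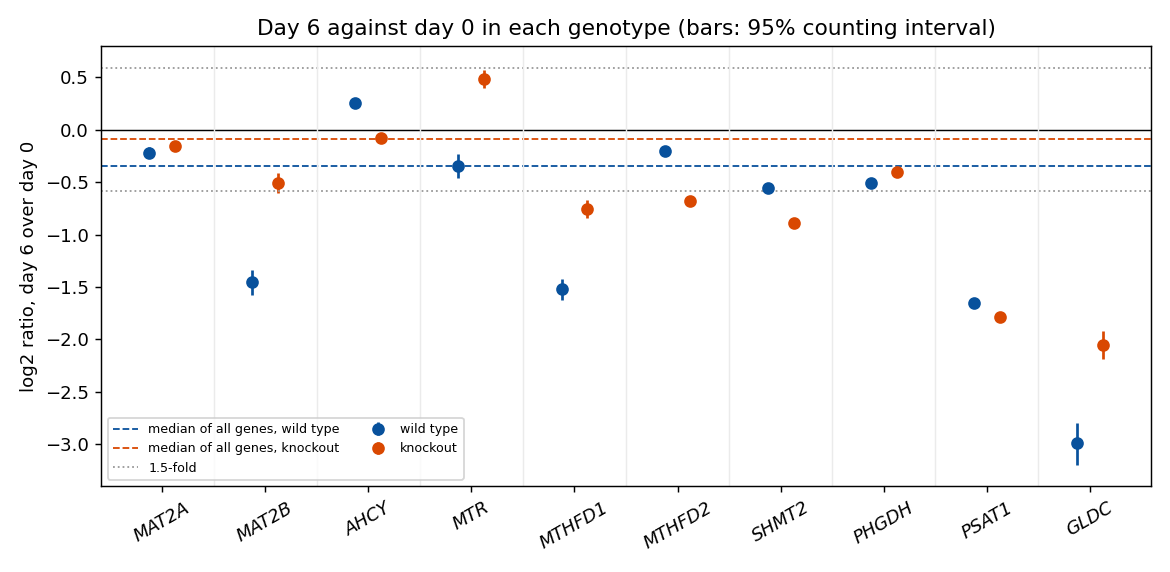
Log2 ratio of day 6 over day 0 for the 10 genes in wild type and in the knockout; bars are 95% counting intervals, dashed lines the median of all measured genes in each genotype and dotted lines 1.5-fold. GLDC lies at -2.99 and -2.05 and PSAT1 reaches -1.79, whereas MTR and AHCY lie on opposite sides of 0 in the 2 genotypes, though above 0 in both with TMM scaling.

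The knockout was compared with wild type at day 0 to ask how undifferentiated cells with and without SIRT1 compare. None of the 10 genes was called, where 1.48% of 9095 measured genes were higher and 2.05% lower. MTHFD1 was furthest from 1, at 1.30-fold lower (1.24 to 1.36), followed by PSAT1 at 1.24-fold lower (1.22 to 1.27). MAT2B was 1.19-fold lower and MTR 1.17-fold higher. The intervals of SHMT2 and GLDC included 1. The members' median log2 ratio was -0.07 and that of all genes -0.01. TMM scaling called none of the 10 either, against 1.91% of all genes higher and 1.38% lower, and changed the sign of SHMT2 and GLDC.

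At day 6, 2 of 9 measured members were higher in the knockout and none was lower, where 17.4% of 8723 measured genes were higher and 4.36% lower. These were MTR, 2.08-fold higher (1.93 to 2.24), and MAT2B, 1.62-fold higher (1.48 to 1.77). The members' share of higher genes is thus near the background. GLDC was at 1.91 times its wild-type level (1.63 to 2.24) but was under 10 CPM in both libraries and so was not measured by the rule. AHCY was 1.38-fold lower (1.35 to 1.41), PSAT1 1.37-fold, MTHFD2 1.30-fold and SHMT2 1.28-fold lower, none reaching the limit.

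The scale matters for this comparison, because the median log2 ratio of all genes was 0.25, and 0.03 with TMM scaling. The members' median, over all 10, was 0.01, below that of all genes. Relative to the all-gene median, MTR stood 0.81 and MAT2B 0.45 higher on the log2 scale, and AHCY -0.71, PSAT1 -0.70, MTHFD2 -0.63 and SHMT2 -0.60. With TMM scaling MTR was the only member called higher, at 1.79-fold, and MAT2B was no longer called, at 1.39-fold. AHCY was then called lower at 1.60-fold, PSAT1 at 1.59-fold and MTHFD2 at 1.51-fold, against 7.22% of all genes higher and 8.04% lower. PHGDH, near 1, changed sign.

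**Figure D3:**
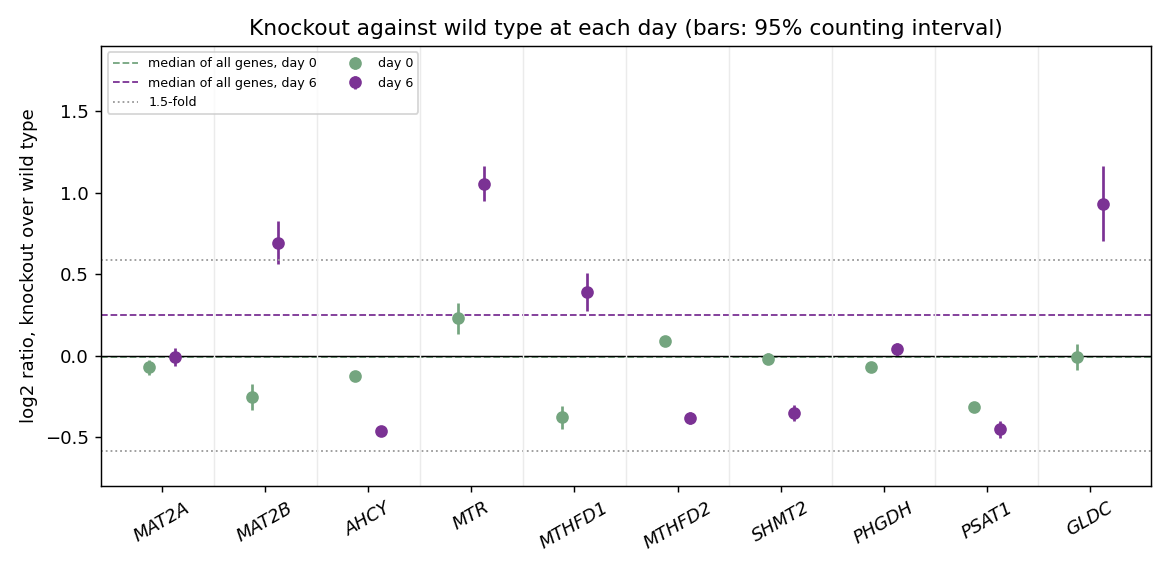
Log2 ratio of knockout over wild type for the 10 genes at day 0 and at day 6; bars are 95% counting intervals, dashed lines the median of all measured genes on each day and dotted lines 1.5-fold. At day 0 all 10 genes lie between -0.38 and 0.23, and at day 6 they spread from -0.46 for AHCY to 1.06 for MTR.

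The day 6 libraries differed in more than genotype. The S phase list of 42 genes summed to 1525 CPM for wild type and 2343 CPM for the knockout, and the 52 G2/M genes to 5813 and 7516 CPM. Among cell type markers, the 5 of surface ectoderm summed to 1549 CPM for wild type and 802 CPM for the knockout, with none at 0. The same 5 had summed to 1260 and 1038 CPM at day 0. They were thus also high in undifferentiated cells, and their day 6 sums do not show surface ectoderm cells. At day 6 the 6 markers of mesoderm and mesenchyme summed to 376 and 103 CPM, with TBXT and LUM at 0 in wild type. Only 1 of those 6 was measured by the rule, and it was lower in the knockout. Neural progenitor markers summed to 166 and 271 CPM over 6 genes, none at 0. Of these, 3 were measured and 1 was called, higher in the knockout. Their median log2 ratio was 0.07, against 0.25 for all genes. The 5 neural crest markers summed to 41.2 and 82.0 CPM, none at 0, and the 2 measured ones were higher in the knockout with either scaling. The part of the cell type markers in the ratios was not tested. Among the 50% of cells lowest in cell cycle UMIs, the log2 ratio of MTR was 1.07 against 1.06 in all cells, that of MAT2B 0.81 against 0.69, and that of MTHFD1 0.43 against 0.39. PSAT1 was further below wild type in those cells, at -0.63 against -0.45.

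Subtracting the log2 knockout ratio at day 0 from that at day 6 gave a median of 0.22 over the 8136 genes measured on both days. MAT2B was at 0.95, GLDC at 0.94, MTR at 0.83 and MTHFD1 at 0.77. GLDC is not among those 8136 genes, since it was under 10 CPM in both day 6 libraries. At the other end, MTHFD2 was at -0.48 and AHCY and SHMT2 at -0.33 each. Of all genes, 4.63% had a larger difference than MAT2B and 5.60% a smaller one than MTHFD2. These are values of 4 libraries and were not tested.

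Counting cells with at least 1 UMI showed the same genes from the side of single cells. All cells were first thinned to 4000 UMIs, and the shares were set beside the share that free RNA would give if it made up 10% of a cell's UMIs. A GLDC UMI was present at day 0 in 12.2% of wild-type and 12.7% of knockout cells, and later in 1.84% and 3.24% (exact interval 2.73 to 3.80) at day 6. Free RNA would give 1.68%, 2.06%, 0.327% and 0.482% in the same order, and without thinning the shares were 35.0%, 27.8%, 3.89% and 10.8%. GLDC was therefore detected in few day 6 cells of either genotype. In wild type at day 6 its level was 8.18 CPM in free RNA, against 4.30 CPM in cells. A PSAT1 UMI was present in 75.8% and 65.9% of cells at day 0, and in 35.0% and 25.4% at day 6. Free RNA would give 13.9%, 11.3%, 4.14% and 3.13%, and the unthinned shares were 95.5%, 86.4%, 57.8% and 58.6%. The thinned order of the 4 libraries is that of the PSAT1 levels, whereas the unthinned shares of the deeper knockout day 6 cells and the wild-type day 6 cells nearly coincide.

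Within each library, levels were then compared between the 25% of cells highest and the 25% lowest in S phase gene UMIs, a list that holds none of the 10 genes. At day 0 none of the 10 genes was called in either genotype. Of all genes, 0.781% were higher and 0.671% lower in wild type, and 1.29% and 1.02% in the knockout. MTR was 1.42-fold higher (1.23 to 1.63) in the S phase cells of wild type and 1.17-fold in those of the knockout, and MAT2A 1.24-fold and 1.19-fold. PHGDH was 1.24-fold and PSAT1 1.22-fold higher in those of the knockout, and MTHFD1 was 1.13-fold higher in wild type and 1.16-fold in the knockout. At day 6 MTHFD1 was at 13.7 CPM in the lowest and 24.6 CPM in the highest cells of wild type, a ratio of 1.80 (1.48 to 2.20). In the knockout it was at 14.9 and 32.0 CPM, a ratio of 2.15 (1.82 to 2.55).

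In the knockout at day 6 the serine synthesis genes were also higher in the cells with most S phase UMIs. PSAT1 was at 61.1 CPM in the lowest and 120.5 CPM in the highest cells, a ratio of 1.97 (1.82 to 2.14), and PHGDH at 159 and 243 CPM, a ratio of 1.53. In wild type at day 6 the ratios were 1.19 for PSAT1 and 1.20 for PHGDH. MTHFD2 had a ratio of 1.52 in the knockout and 1.22 in wild type, and AHCY one of 1.00 and 1.06. By the same rule 11.8% of all genes were higher in the S phase cells of the knockout and 7.46% in those of wild type. Median depth also differed between these classes, at 9782 UMIs in the lowest and 14690 in the highest cells of the knockout. A split of the day 6 knockout cells by G2/M gene UMIs gave ratios of 1.67 (1.53 to 1.82) for PSAT1, 1.49 for PHGDH and 1.43 for MTHFD2. PSAT1 was called there, where 12.5% of all genes were higher, and the other genes named were not.

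AHCY lies on chromosome 20 (GRCh38, chr20:34280268-34311802, minus strand), and the knockout libraries hold cells with a low share of UMIs from that chromosome. Leaving out the 10 genes, ribosomal protein genes and mitochondrially encoded genes, 58.1% of the day 0 and 63.5% of the day 6 knockout cells had under 2.6% of UMIs from chromosome 20. Among wild-type cells these shares were 0.651% and 4.34%. In the knockout at day 0, AHCY was at 209 CPM in cells under 2.6%, 271 CPM between 2.6% and 3%, and 307 CPM in cells with at least 3%. At day 6 the 3 levels were 198, 277 and 300.5 CPM, and the outer classes differed 1.47-fold (1.42 to 1.52) at day 0 and 1.52-fold (1.46 to 1.57) at day 6. AHCY was thus higher in each successive class of the knockout on both days. The outer classes of wild type differed 1.36-fold (1.09 to 1.72) at day 0 and 1.34-fold (1.22 to 1.46) at day 6. With only the knockout cells of at least 3%, the log2 ratio of AHCY to wild type was 0.19 in place of -0.13 at day 0 and -0.10 in place of -0.46 at day 6.

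The other 9 genes lie elsewhere in the genome, and most differed less between these classes of the knockout. PSAT1, on chromosome 9, was 1.31-fold higher (1.27 to 1.35) in the day 0 knockout cells with at least 3% and 1.20-fold higher at day 6. MTHFD2, on chromosome 2, was 1.26-fold higher at day 0 and 1.06-fold at day 6. MTR, on chromosome 1, was lower in them, with a ratio of 0.728 (0.650 to 0.813) at day 0 and 0.899 at day 6. In wild type the same classes gave PSAT1 ratios of 1.06 (0.899 to 1.26) at day 0 and 1.39 (1.20 to 1.62) at day 6. MTHFD2 was at 1.46 (1.15 to 1.88) and 1.02 there, and both MTR intervals included 1. In the knockout cells of at least 3% the log2 ratio to wild type at day 6 was 0.93 for MTR and 0.69 for MAT2B, so both differences were also present there. At day 0 the same cells gave -0.05 in place of -0.31 for PSAT1 and -0.05 in place of 0.23 for MTR.

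**Figure D4:**
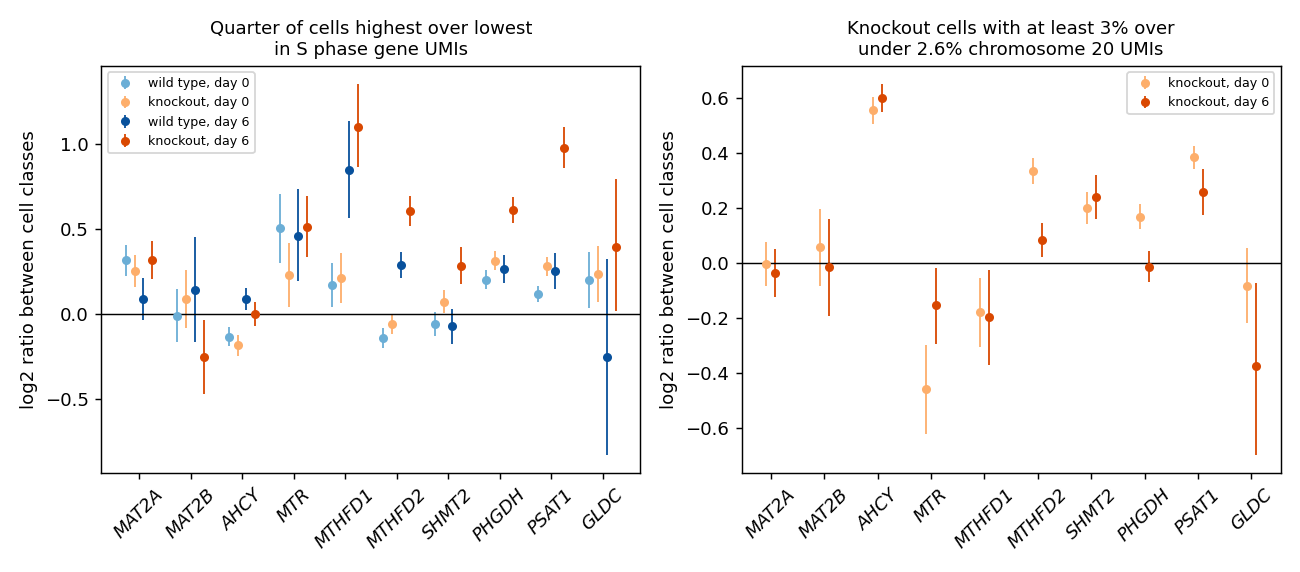
Log2 ratio between cell classes for the 10 genes, with 95% counting intervals: left, cells highest over cells lowest in S phase gene UMIs in each of the 4 libraries; right, knockout cells with at least 3% over those with under 2.6% of UMIs from chromosome 20. On the left MTHFD1 and PSAT1 of the day 6 knockout stand highest, at ratios of 2.15 and 1.97, and on the right AHCY, at 1.47 and 1.52.

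At day 6 the cells with a UMI of FOXA2, a floor plate transcription factor, made up 26.1% of wild-type and 26.4% of knockout cells after thinning. PSAT1 was at 94.7 CPM without and 70.8 CPM with a FOXA2 UMI in the knockout, a ratio of 0.748 (0.700 to 0.797), and at 121 and 123 CPM in wild type. MTHFD2 was lower in the FOXA2 cells of both genotypes, with ratios of 0.811 in wild type and 0.782 in the knockout. Comparing only FOXA2 cells, PSAT1 was called lower in the knockout, at a log2 ratio of -0.80, and MTR was at 0.74. The share of all genes called among FOXA2 cells is not given here. In all day 6 cells 17.4% of genes were higher and 4.36% lower, with a median log2 ratio of 0.25.

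The genes around the 10 were followed through 7 lists, all of whose symbols were found. The list of regulators and ATF4 targets holds genes that respond to amino acid shortage, and also MYC, MYCN and NFE2L2. In the knockout at day 0 it had 3 of 11 measured genes lower and none higher, where 2.05% of all genes were lower. Its median log2 ratio was -0.37, against -0.01 for all genes. The 3 lower genes were TRIB3, 1.78-fold lower, the transcription factor CEBPB, 1.69-fold, and DDIT3, 1.55-fold, the last not called with TMM scaling. SLC7A5, an importer of large neutral amino acids including methionine, stood at 64.1 CPM for wild type and 38.6 CPM for the knockout, 1.66-fold lower. SLC7A11, the cystine importer, was at 40.4 and 24.5 CPM, and the DNA methyltransferase DNMT3B was 1.88-fold lower. No gene of the folate, methionine or purine lists was called.

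At day 6 the knockout had 4 of 10 measured folate genes higher and none lower, where 17.4% of all genes were higher, with a median log2 ratio of 0.48 against 0.25 for all genes. With TMM scaling 1 of the 10 was higher, against 7.22% of all genes. TYMS, which makes thymidylate, was 1.57-fold higher (1.52 to 1.62). SHMT1 was 1.55-fold and MTHFD2L 1.52-fold higher, and none of these 3 was called with TMM scaling. In the methionine list ADI1, an enzyme of the salvage pathway, was 1.64-fold higher and the other 11 measured genes were not called, and with TMM scaling none was. None of the 12 purine synthesis genes was called with either scaling. The regulators had 4 of 9 lower and none higher, where 4.36% of all genes were lower: ATF5, 3.62-fold, MYC, 2.34-fold, CEBPB, 1.64-fold, and VLDLR, 1.52-fold. SLC7A5 was 2.68-fold lower, SLC7A11 1.59-fold, and HNMT, which methylates histamine, went from 29.2 CPM in wild type to 11.2 CPM.

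From day 0 to day 6, 37.2% of all genes were lower and 11.7% higher in wild type, and 20.9% lower and 13.9% higher in the knockout. Against these shares, 6 of 11 folate genes were lower in wild type and 3 of 11 in the knockout, the latter near the background, and none was higher. With TMM scaling 2 and 1 were lower, and 1 was higher in the knockout. SHMT1 was 2.30-fold lower in wild type, and MTHFS, which salvages formyl folate, was 1.92-fold lower in wild type and 1.59-fold lower in the knockout, neither MTHFS value being called with TMM scaling. In the serine list 5 of 10 were lower in wild type and 4 of 10 in the knockout, where all genes gave 37.2% and 20.9%, and 1 was higher in each. PSPH, the last enzyme of serine synthesis, was 2.49-fold lower in wild type and 2.37-fold lower in the knockout, so that it was called lower alongside PSAT1 in both genotypes. The neutral amino acid carrier SLC1A5 was 2.22-fold and 2.19-fold lower, and SLC7A5 2.63-fold and 4.25-fold. SFXN1, which carries serine into mitochondria, was 1.60-fold higher in the knockout.

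The methionine list had 5 of 13 measured genes lower and none higher in wild type, and 3 lower and 1 higher in the knockout. These shares are near the 37.2% and 20.9% of all genes that were lower. MTRR, which keeps methionine synthase active, was 2.68-fold lower in wild type and 1.77-fold in the knockout, and ADI1 2.73-fold and 2.21-fold. ODC1, the first enzyme of polyamine synthesis, was 1.70-fold higher in the knockout. In transsulfuration, which leads from homocysteine to cysteine, CBS was 3.27-fold lower in wild type and 4.14-fold in the knockout, while SLC7A11 was 1.62-fold and 1.68-fold higher. Of 14 measured users of methyl groups, 5 were lower and 2 higher in wild type, and 3 lower and 1 higher in the knockout. All genes gave 37.2% lower and 11.7% higher in wild type, and 20.9% and 13.9% in the knockout. TMM scaling gave 2 lower in each genotype, with 4 higher in wild type and 3 in the knockout. DNMT3B was at 502 and 28.2 CPM in wild type, 17.8-fold lower, and 8.67-fold lower in the knockout. HNMT and GAMT went the other way in wild type, 9.08-fold and 2.03-fold higher, and HNMT was 2.06-fold higher in the knockout. Of the purine genes 4 of 12 were lower in each genotype, in wild type a smaller share than the 37.2% of all genes, led by PFAS at 3.92-fold and 2.39-fold. With TMM scaling, under which 18.6% of all genes were lower and 25.8% higher in wild type, the methionine list had 3 lower and 2 higher there, the serine list 3 lower and 1 higher, and the purine list 1 lower and 2 higher. In the knockout the same lists then had 3, 3 and 2 lower, and 1, 1 and 0 higher, against 15.5% and 19.0% of all genes. Of the regulators and ATF4 targets, 4 of 11 were lower in wild type and 8 of 11 in the knockout, where all genes gave 37.2% and 20.9%, with medians of -0.20 and -0.92 against -0.35 and -0.09 for all genes. TRIB3 was 3.01-fold lower in wild type and 6.38-fold in the knockout, and CHAC1, which degrades glutathione, 5.65-fold and 4.07-fold.

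For the 3 genes with the widest range, the genes with the most similar level profile were sought among 3634 genes with at least 50 CPM in 1 library, by distance between log2 levels centred over the 4 libraries. The nearest to GLDC were ERBB2, CRMP1 and GNG4. ERBB2, a receptor tyrosine kinase gene, stood at 178 CPM for wild type and 180.1 CPM for the knockout at day 0, then at 25.1 and 49.3 CPM, a distance of 0.110. PSAT1 was nearest to 3 mitochondrially encoded genes, MT-ATP6, MT-CYB and MT-CO2. MT-ATP6 was at 8917, 6996, 2830 and 2070 CPM in the same order, a distance of 0.0269. MTHFD1 was nearest to LSM1, CFAP298 and IMP3, with a distance of 0.0392 to LSM1. Among the 10 genes themselves, the nearest to MTHFD1 was MAT2B, at 0.272, and the nearest to GLDC was PSAT1, at 1.10. Each profile rests on 4 libraries.

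Processed pseudogenes could share reads with some of these genes. The GENCODE annotation holds 7 named after MTHFD2, 6 after AHCY, 4 after PSAT1 and 1 each after MTHFD1 and GLDC, and none after the other 5 genes. None of these pseudogenes is a feature of the count matrices. Whether any of their reads entered the counts of the parent genes cannot be told from these matrices.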

How the data were processed

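The deposited matrices hold counts of UMIs per gene and barcode, unfiltered, from 10x 3′ libraries, 1 per group. The submitters' processing notes name Cell Ranger 6.1.2 and GRCh38. Cells were filtered as stated in the results, with no doublet caller and no removal of doublets. Counts were summed over cells and divided by the library's UMIs in cells. Levels carry exact Poisson and ratios exact conditional binomial (Clopper-Pearson) 95% intervals, and log2 ratios a prior count of 0.5. PCR copies are collapsed by UMI, and intervals cover counting error only. Shares carry exact binomial intervals. Shares of cells, and classes other than those by chromosome 20, were set on cells thinned to 4000 UMIs. The chromosome 20 classes used unthinned cells, and levels within all classes were summed without thinning. Free RNA was taken from barcodes with 1 to 50 UMIs. TMM factors came from edgeR 4.0.16, and other steps from Python 3.11.15, numpy 2.4.6 and scipy 1.17.1. On simulated data all 200 genes changed 2-fold were recovered in each of the 4 comparisons, with 0 false calls. The simulated counts varied by counting error only, as the intervals assume. This checks the calculation and cannot show how the rule behaves under variation between libraries. The members, lists and rules were chosen with earlier results of these data known. All 10 genes are named, with up to 4 called genes per list and comparison, the largest first. Not every gene that meets this rule is reported here. Gene positions came from GENCODE (GRCh38) by Ensembl identifier. In all 13 alternatives were tried.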

Additional observations from a re-analysis of the deposited data

Results flagged for a closer look

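For 4 genes the knockout stood on opposite sides of wild type on the 2 days, with counting intervals that excluded 1 each time; with 1 library per group the difference was not tested. The log2 ratio of MAT2B was -0.256 at day 0 and 0.692 at day 6, and that of MTHFD1 was -0.379 and 0.388. MTHFD2 went the other way, from 0.0919 to -0.383. PHGDH was at -0.0698 and 0.0375, and its day 6 value became negative with TMM scaling.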

How the results depend on the processing

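No paired analysis was possible because each group has 1 library, and leaving out a replicate could not be done for the same reason. Over 9 of the alternatives, 330 ratios and differences of the 10 genes were recomputed. None of the called ones reversed, 119 moved by more than their counting interval and 20 changed sign; the largest shift was 0.41 on the log2 scale, with TMM scaling. With TMM scaling 1 member was higher and 3 lower in the knockout at day 6, and 1 was higher at day 6 in each genotype. With the lower fold limit, 1 was lower in the knockout at day 0 and 4 at day 6, 7 were lower at day 6 in wild type, and 1 was higher at day 6 in the knockout. With a limit of 2-fold, 1 was higher in the knockout at day 6, and 2 were lower at day 6 than at day 0 in the knockout. With a minimum of 50 CPM, 0 were higher in the knockout at day 6, and 2 in wild type and 3 in the knockout were lower at day 6, since fewer genes were measured. With only knockout cells of at least 3% chromosome 20 UMIs, 1 member (MTR) was higher at day 6 in the knockout. In the cells lowest in cycle UMIs, and in cells with a FOXA2 UMI, 1 member (PSAT1) was lower in the knockout at day 6. The cause was not tested. Shares of all genes are not given here for the other fold and CPM limits or for these cell subsets, so these counts lack a background.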
